A study of Mus musculus with 96 samples.

Results

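The libraries described here are 36 of the 96 libraries of a mouse brain mRNA-seq study, 18 from hippocampus (HPC) and 18 from prefrontal cortex (PFC). They come from animals without the CSF1R inhibitor PLX5622, a compound known to deplete microglia: females and males after maternal immune activation (MIA), in which the immune system of the pregnant dam is stimulated, and males after saline. The libraries fall into 2 RNA states of 9 labels each, and each label was placed in the same state in both tissues. State A holds MIA females 2 and 4, MIA males 3, 4 and 6, and saline males 1, 3, 4 and 5. State B holds MIA females 1, 3, 5, 6 and 7, MIA males 2 and 5, and saline males 2 and 6. The labels give no age, immune agent, litter, dissection or preparation date, and they do not say whether a hippocampal and a cortical library with the same label came from the same animal.

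The members were chosen by their own expression values, so every difference between the states below is a description, with no test, and its size says nothing about how the states arose. The measure that separates them is the share of a library's signal taken by ribosomal protein and oxidative phosphorylation genes. In HPC that share ran from 1.23% to 1.41% in state A (median 1.32%) and from 0.951% to 1.08% in state B (median 1.01%). In PFC it ran from 1.23% to 1.38% in state A (median 1.32%) and from 0.888% to 1.17% in state B (median 0.966%). The libraries nearest to the boundary in PFC were saline male 3 of state A, at 1.23%, and saline male 2 of state B, at 1.17%. In HPC they were saline male 4 of state A, at 1.23%, and MIA female 3 of state B, at 1.08%.

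As background, poly(A) libraries sample the messenger RNAs of all cells of a tissue piece at once. Ribosomal, respiratory chain and proteasome proteins are mostly small and have short messenger RNAs, whereas ion channels, adhesion proteins, synaptic scaffolds and chromatin enzymes, which brain tissue expresses in great variety, have long coding regions and long 3′ untranslated regions. In bulk tissue, fewer cells of a type and less RNA per cell cannot be told apart. A regional marker matched the labelled tissues: Prox1, a transcription factor of dentate granule cells, had a signal of 1849 to 4685 in the 18 HPC libraries and 243 to 403 in PFC. Signal is the deposited unit, reads per gene after division by a scaling factor of the library.

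Depth overlapped between the 2 states but had a higher median in state A. Reads recovered from the signal ran from 23.6 M to 26.7 M per library in state A and from 22.8 M to 25.7 M in state B in HPC (M for mega), and from 23.8 M to 25.9 M and 23.5 M to 24.8 M in PFC. The total signal was lower in state A, with medians of 23.7 M against 24.2 M in HPC and 23.6 M against 24.6 M in PFC.

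A large part of the transcriptome was arranged by state. Of 18354 genes with a mean signal of at least 10 in HPC, 993 (5.41%) had all 9 state A libraries above all 9 state B libraries and 1490 (8.12%) had all 9 below. In PFC, 1036 (5.68%) and 1540 (8.44%) of 18242 genes did. These genes include those that chose the states, so the counts carry no weight as evidence. With every library scaled to an equal total instead, 1733 were higher and 1194 lower in HPC and 1698 higher and 1204 lower in PFC, so that the higher genes made up 59.2% and 58.5% of the separated genes rather than 39.99% and 40.22%. Without MIA female 3 of state B, 1494 genes were higher in HPC. The difference was wider on the lower side. A fitted difference of at least 1.5-fold, with treatment group as covariate, was reached by 225 genes that were higher in state A (1.23%) and 1191 that were lower (6.49%) in HPC, and by 195 (1.07%) and 1237 (6.78%) in PFC. Many of these had low signal: with a mean of at least 100, the numbers were 50 and 443 in HPC and 45 and 523 in PFC. The median log2 difference over all tested genes was 0.016 in HPC and 0.017 in PFC.

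The genes that were lower in state A with the largest difference relative to its standard error in both tissues were 15 genes, among them several of the neuronal membrane and of vesicle release. Xkr4, a membrane protein of the XK-related family, had a signal of 471 and 497 in the 2 MIA females of state A in HPC, against 1259, 1510, 1640, 1768 and 1800 in the 5 of state B. In HPC males after MIA it was 386, 431 and 453 in state A and 1540 and 1623 in state B, and in saline males 388, 464, 464 and 467 against 1406 and 1504. Every treatment group showed the same gap, with no library between 497 and 1259. In PFC, Xkr4 ran from 395 to 525 in state A (median 446) and from 1361 to 1832 in state B (median 1642). The log2 differences, state A minus state B, were -1.77 ± 0.07 (SE) in HPC and -1.84 ± 0.07 in PFC.

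Gabrb2, a subunit of the GABA-A receptor, ran from 1349 to 1675 (median 1553) in state A and from 3259 to 4429 (median 3786) in state B in HPC. In PFC it ran from 2027 to 2192 (median 2137) and from 4538 to 5595 (median 5139). Its 2 sets of libraries lay far apart in each tissue, with log2 differences of -1.25 ± 0.05 and -1.26 ± 0.04. Stxbp5l, a syntaxin-binding protein of vesicle release, ran from 600 to 828 against 1839 to 2560 in HPC and from 539 to 677 against 1847 to 2283 in PFC. For each of these genes the lowest library of state B had well above the signal of the highest library of state A.

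Nuclear regulators and enzymes of protein turnover were also among the lower genes. Hipk2, a nuclear serine/threonine kinase, ran from 687 to 865 in state A and from 1907 to 2658 in state B in HPC, a log2 difference of -1.45 ± 0.07, and its PFC difference was -1.69 ± 0.06. Usp9x, a deubiquitinase, ran from 2523 to 3062 against 5433 to 7157 in HPC and from 2650 to 3262 against 5784 to 7735 in PFC. Nr2c2, an orphan nuclear receptor, ran from 1076 to 1297 against 2074 to 2433 in HPC and from 1140 to 1338 against 2340 to 2669 in PFC. The remaining genes chosen by the same rule were Faxc, Shc3, a neuronal adaptor protein, Vps13d, a lipid transfer protein, Tcp11l1, Klhl11, Tenm1, a teneurin adhesion protein, Arhgef12, a guanine nucleotide exchange factor, Slc9a7, a sodium/proton exchanger, and Lrp1b, an LDL receptor family member. Their log2 differences ran from -0.75 for Arhgef12 to -1.57 for Tcp11l1 in HPC. None of them overlapped between the states in either tissue.

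The genes that were higher in state A showed smaller differences. Eif1, which helps the ribosome select the start codon, had 3579 and 3719 in the MIA females of state A in HPC against 2635, 2691, 2882, 2907 and 2941 in those of state B. MIA males had 3662, 3832 and 3907 against 2507 and 2673, and saline males 3507, 3590, 3652 and 4014 against 2603 and 2997. State A was higher within each treatment group, and the log2 difference was 0.44 ± 0.04 in HPC and 0.47 ± 0.04 in PFC. Pebp1, an inhibitor of Raf kinase, ran from 5138 to 6276 against 3936 to 4993 in HPC and from 4726 to 5546 against 3644 to 4232 in PFC. Atp6v0b, a membrane subunit of the vacuolar proton pump, ran from 4105 to 4808 against 3302 to 3820 in HPC and from 4590 to 5288 against 3415 to 4062 in PFC. The plot of 6 genes by library shows the 2 levels in each group and tissue.

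**Figure D1:**
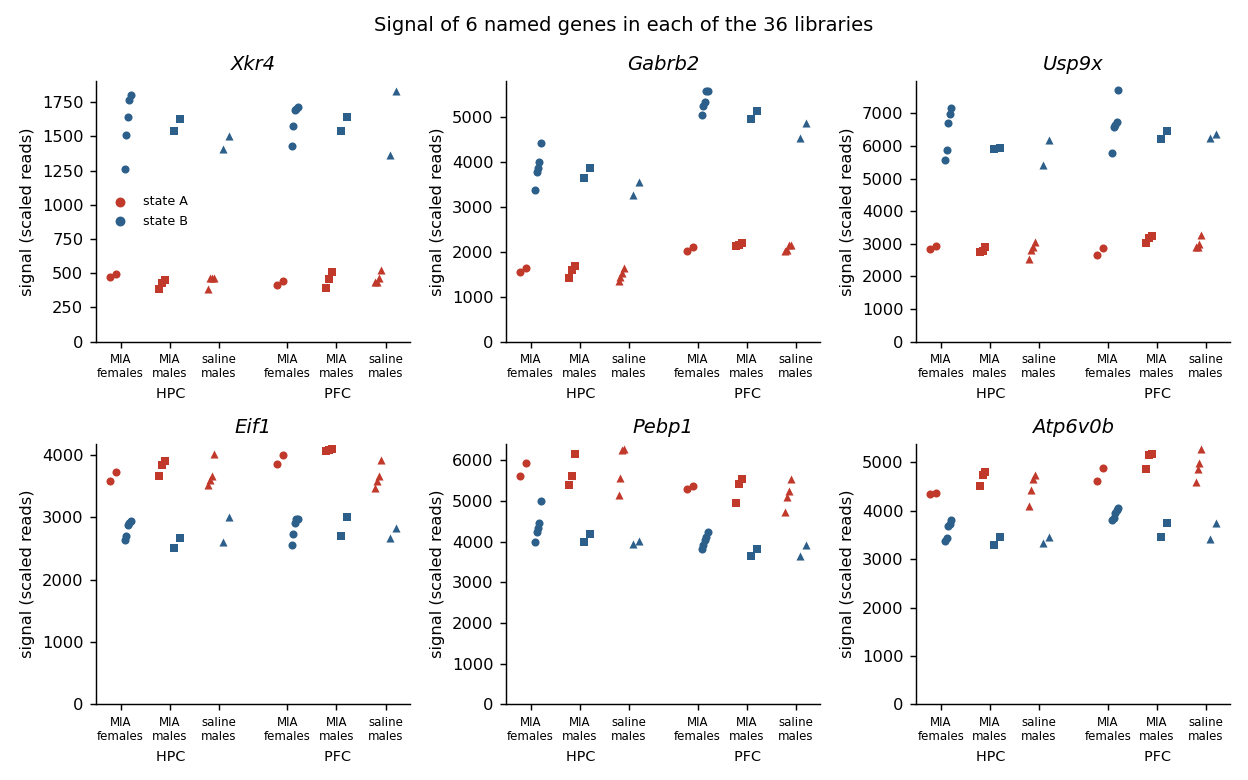
Signal (scaled reads per gene, linear axes from 0) of Xkr4, Gabrb2, Usp9x, Eif1, Pebp1 and Atp6v0b in each of the 36 libraries, by tissue and treatment group, with state A in red and state B in blue; each point is 1 library. Xkr4 reached at most 497 in state A and at least 1259 in state B in HPC, whereas for Eif1 the gap lay between 2997 and 3507.

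The other genes of known symbol that led the higher side were Hcfc1r1, Ssr2, a subunit of the translocon-associated complex, Chmp2a, an ESCRT-III subunit of membrane scission, Tecr, a reductase of fatty acid elongation, Polr2g, a subunit of RNA polymerase II, Pttg1, the separase inhibitor securin, Ufc1, a conjugating enzyme for the modifier UFM1, Nudt16l1 and Cuedc2. Their HPC log2 differences lay between 0.39 for Tecr and 0.51 for Polr2g. Processed pseudogenes appeared among them. Rps6-ps4 ran from 3169 to 3616 in state A against 2329 to 2786 in state B in HPC, and Rpl14-ps1 from 3668 to 4365 against 2659 to 3223. Reads of ribosomal protein genes and of such near-identical copies cannot be told apart with certainty, so values for single ribosomal protein genes and their pseudogenes are uncertain.

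Because the separated genes lay together on 2 sides in both tissues, the promoters of 4 of them are shown: Eif1 and Atp6v0b, which were higher in state A, and Gabrb2 and Hipk2, which were lower. Each is the RefSeq window of 300 bases, 250 before to 50 after the annotated start, on build GRCm38.p6, written 5′ to 3′ on the gene's strand. Capitals mark every match, on either strand, to 8 short motifs. They are the TATA box, searched as TATAAA, the CCAAT box, searched by the letters of its name, the GC box, searched as GGGCGG, and the site of ETS factors, searched as CCGGAAG. The cyclic AMP response element was searched as TGACGTCA and the core of the NRF1 site as GCGCATGC. The E-box was searched as CACGTG and the YY1 site as AAGATGGC, whose first letters can overlap the end of the ETS letters.
Eif1, chr11:100319699-100319998, plus strand: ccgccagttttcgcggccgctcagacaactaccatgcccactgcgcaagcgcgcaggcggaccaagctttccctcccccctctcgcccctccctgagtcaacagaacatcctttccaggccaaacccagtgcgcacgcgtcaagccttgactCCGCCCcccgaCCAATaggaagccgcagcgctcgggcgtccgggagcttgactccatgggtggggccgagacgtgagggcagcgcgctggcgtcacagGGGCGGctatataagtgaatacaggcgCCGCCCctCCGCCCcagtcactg
Atp6v0b, chr4:117887280-117887579, minus strand: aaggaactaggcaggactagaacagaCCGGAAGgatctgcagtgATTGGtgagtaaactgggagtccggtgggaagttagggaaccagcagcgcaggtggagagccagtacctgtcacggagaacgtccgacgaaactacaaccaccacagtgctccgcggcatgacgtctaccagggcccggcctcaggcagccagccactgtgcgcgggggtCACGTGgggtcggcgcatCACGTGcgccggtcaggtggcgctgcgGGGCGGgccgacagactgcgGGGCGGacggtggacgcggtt
Gabrb2, chr11:42420190-42420489, plus strand: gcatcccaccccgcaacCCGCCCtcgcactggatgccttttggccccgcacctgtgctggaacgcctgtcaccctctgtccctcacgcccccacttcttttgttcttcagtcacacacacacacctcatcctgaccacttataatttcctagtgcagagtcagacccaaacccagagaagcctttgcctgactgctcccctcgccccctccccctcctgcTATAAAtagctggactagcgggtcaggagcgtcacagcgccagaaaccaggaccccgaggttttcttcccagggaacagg
Hipk2, chr6:38876141-38876440, minus strand: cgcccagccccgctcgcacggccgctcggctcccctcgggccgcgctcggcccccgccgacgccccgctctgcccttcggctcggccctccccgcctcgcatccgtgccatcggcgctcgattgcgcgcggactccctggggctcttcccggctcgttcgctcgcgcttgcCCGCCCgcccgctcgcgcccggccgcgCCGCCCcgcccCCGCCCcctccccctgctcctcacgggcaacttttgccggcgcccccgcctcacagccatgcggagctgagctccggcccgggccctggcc

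In these windows, Eif1 held CCAAT and GC box letters, Atp6v0b held those of an ETS site, an E-box, a CCAAT box and a GC box, Gabrb2 held a TATA box and a GC box, and Hipk2 held GC box letters only, in a window of 80.7% G and C. Of the 469 genes higher in state A in both tissues, 334 had a window in the table, and 28.7% of these held CCGGAAG. Of the 1080 lower in both, 742 had a window, and 12.4% held it. Over 12147 tested genes with a window the share was 16.2%, and over 58 ribosomal protein genes it was 39.7%. The letters AAGATGGC were in 9.28% of the windows of the higher genes, 4.58% of those of the lower genes and 4.22% of all. The median G and C content was 59.3%, 64.3% and 60.7%. These matches describe letters in a window and show no binding.

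Genes of protein synthesis and energy supply lay on the higher side, and are also set against genes of like length further below. Of 79 ribosomal protein genes, 77 had a higher fitted value in state A in HPC and 78 in PFC, with a median log2 difference of 0.37 in both tissues. Of them, 20 and 18 did not overlap between the states, where 5.41% in HPC and 5.68% in PFC of all tested genes were higher without overlap. Nothing is read from these counts, since the choice of the states used the same values. Rpl4, a protein of the large subunit, ran from 9683 to 11144 in state A and from 7712 to 9462 in state B in HPC. Of 75 measured oxidative phosphorylation genes, 74 were higher in HPC and 71 in PFC, with medians of 0.39 and 0.38, and 35 and 22 did not overlap. Cox4i1, a subunit of cytochrome c oxidase, ran from 10103 to 11992 against 6953 to 8608 in HPC, while in PFC its state B libraries reached 11761 and overlapped state A. These are the genes whose share separates the states, so their direction was fixed by the choice. The mitochondrial ribosome (72 genes), which the share does not include, had medians of 0.26 in HPC and 0.32 in PFC, and 70 of its genes were higher in each tissue.

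Other short housekeeping transcripts lay on the same side. All 31 proteasome genes had higher fitted values in both tissues, with medians of 0.34 and 0.35, and 13 and 16 of them did not overlap (all genes, 5.41% and 5.68%). Psmc5, an ATPase of the regulatory particle, ran from 3448 to 4057 against 2563 to 3190 in HPC. Translation factors had medians of 0.21 and 0.22 (34 genes) and glycolytic enzymes of 0.24 and 0.21 (16 genes). Their members were not alike. Eef2, the elongation factor that moves the ribosome along the message, ran from 24511 to 27701 in state A and from 23511 to 26321 in state B in HPC, a log2 difference of 0.08 ± 0.04, whereas Eef1b2 differed by 0.45 ± 0.06.

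Chromatin, channel and synaptic genes lay on the lower side, and are set against genes of like length further below. All 36 histone methyltransferases and chromatin remodellers had lower fitted values in HPC and 35 in PFC, with medians of -0.39 and -0.42, and 23 and 27 did not overlap (all genes lower, 8.12% and 8.44%). Ash1l, a histone H3 methyltransferase, ran from 3356 to 3970 in state A against 5365 to 6372 in state B in HPC and from 3499 to 3973 against 5707 to 6444 in PFC. Of 54 ion channel and glutamate receptor genes, 52 were lower in HPC and all 54 in PFC, with medians of -0.37 and -0.40, and 26 and 30 did not overlap, against the same shares of all genes. Kcna1, a voltage-gated potassium channel, ran from 965 to 1201 against 2301 to 3007 in HPC and from 922 to 1331 against 2195 to 2913 in PFC. Ryr2, a calcium release channel, differed by -0.81 ± 0.06 and -0.94 ± 0.05, while Gria1, an AMPA receptor subunit, differed by -0.15 ± 0.05 and -0.17 ± 0.03. Of 47 synaptic adhesion and scaffold genes, 45 were lower in each tissue, with medians of -0.29 and -0.30, and 21 and 24 did not overlap. Ank2, an ankyrin of the axonal membrane skeleton, ran from 14807 to 17849 against 22946 to 26565 in HPC. Dlg4, the postsynaptic scaffold PSD-95, had overlapping ranges and differed by -0.01 ± 0.04 and -0.03 ± 0.04. The members of a group thus spread widely, as the plot of list medians shows.

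**Figure D2:**
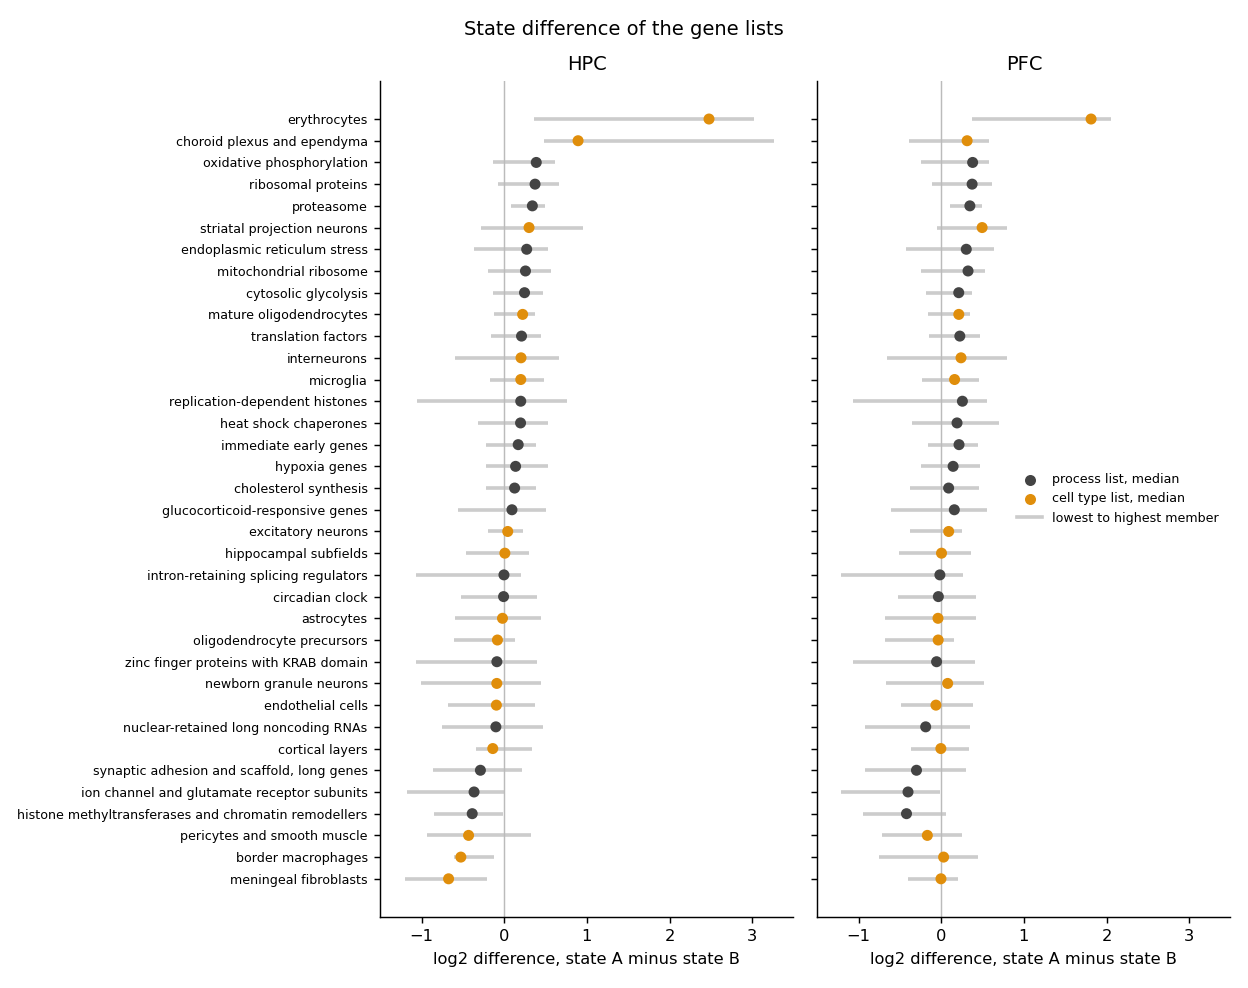
Log2 difference, state A minus state B, of 36 gene lists with at least 5 measured members in each tissue; dots are list medians (dark for processes, orange for cell types) and bars run from the lowest to the highest member. Oxidative phosphorylation (0.39 in HPC, 0.38 in PFC) and the proteasome lie on the right and chromatin remodellers (-0.39, -0.42) on the left in both panels, while meningeal fibroblasts (-0.67 in HPC, 0.00 in PFC) and choroid plexus differ between the panels.

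The state difference was set against the length of the transcript. Lengths were taken for 14447 protein-coding genes in HPC and 14428 in PFC from the longest annotated transcript of each gene. Across genes, Spearman's rho between length and the state difference was -0.69 in HPC and -0.70 in PFC, and the logarithm of length accounted for 35.8% and 40.6% of the variance of the difference. With the median length of a gene's annotated transcripts rho was -0.52 and -0.53, and with the length of the coding region -0.56 and -0.60. Genes share libraries and scaling, so they are no independent replicates and these values carry no p. The genes were put in 10 equal groups by length. In the group of the shortest transcripts (median 1037 bases) the median log2 difference was 0.32 in HPC, 88.5% of the genes were higher in state A, and 20.8% had all state A libraries above all state B libraries. In the group of the longest (median 8436 bases) it was -0.39, 3.53% of the genes were higher, and 51.3% had all state A libraries below. In PFC the medians were 0.32 and -0.42, and 51.5% of the longest group lay below. The median declined at each step between these ends in both tissues.

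**Figure D3:**
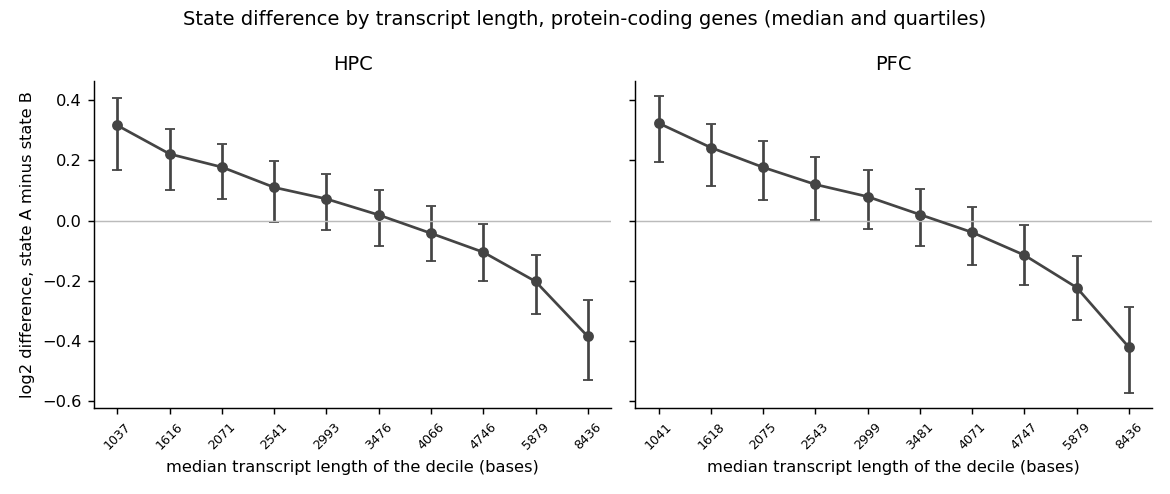
Log2 difference, state A minus state B, of protein-coding genes in 10 equal groups by transcript length (axis labels give the group's median length in bases), in HPC and PFC; points are medians and bars span the quartiles. The median passes from 0.32 in the shortest group to -0.39 in HPC and -0.42 in PFC in the longest group.

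Both the coding region and the 3′ untranslated region followed this order. Each was put in 4 equal groups by length. Among genes in the shortest group for both, the median difference was 0.32 in HPC (1158 genes) and 0.33 in PFC, and among those in the longest group for both it was -0.35 (1018 genes) and -0.38. Genes with a short coding region and a long 3′ untranslated region had a median of 0.02 in HPC and those with the reverse had -0.09. The span of the longest annotated transcript on the chromosome, introns included, had rho of -0.51 in HPC and -0.53 in PFC. Transcripts of longer span also tended to be longer. Among the longest of 4 equal groups of transcripts in HPC, genes of the shortest span (136 genes, median transcript 5425 bases) had a median of -0.12. Those of the longest span (2015 genes, median transcript 6930 bases) had -0.32, so that span and transcript length cannot be told apart within this group. Among the shortest transcripts the median was 0.28 for the shortest span and 0.21 for the longest. From the shortest to the longest transcripts it passed from 0.28 to -0.12 within the shortest span, and from 0.21 to -0.32 within the longest. Mean signal had little relation to the difference, with rho of -0.06 in both tissues, and G and C content had rho of 0.27 and 0.22.

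The same order appeared inside gene groups whose members share a function or a cell of origin. Of 33 lists with at least 10 members of known length in both tissues, rho between length and state difference was below 0 in 32 in HPC and in all 33 in PFC. The exception in HPC was the choroid plexus list, at 0.11. It was -0.96 in HPC and -0.97 in PFC for 16 endothelial genes, -0.88 and -0.87 for 20 microglial genes, -0.79 and -0.81 for translation factors, -0.75 and -0.78 for chromatin genes, and -0.15 and -0.07 for ribosomal proteins. Among microglial genes, Tyrobp, an adaptor protein with a transcript of 597 bases, ran from 257 to 313 in state A against 168 to 242 in state B in HPC. Csf1r, the receptor that PLX5622 inhibits, has a transcript of 4701 bases and differed by 0.00 ± 0.05 in HPC and -0.05 ± 0.04 in PFC. Among astrocyte genes, Slc1a2, the main glutamate transporter (11595 bases), ran from 65875 to 80590 against 102355 to 124217 in HPC. The endothelial genes Egfl7 (1391 bases) and Flt1, a VEGF receptor (6895 bases), differed by 0.37 ± 0.06 and -0.34 ± 0.10 in HPC. Genes of 1 cell type thus lay on both sides. List members were also set against the median of their length group, in HPC and PFC. The median deviation was -0.07 and -0.03 for chromatin genes, -0.05 and -0.08 for channels, and -0.04 and -0.04 for synaptic genes. It was 0.07 and 0.07 for ribosomal proteins, 0.12 and 0.10 for oxidative phosphorylation, and 0.09 and 0.10 for the proteasome. These lists thus lay near other genes of like length.

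Some genes, picked after their values were seen, departed from the median of their length group. Gucy1a2, a subunit of soluble guanylate cyclase annotated at 2243 bases, ran from 68.6 to 114 in state A against 240 to 428 in state B in HPC, a log2 difference of -1.90 ± 0.11, where its length group had a median of 0.18. Hs6st3, a heparan sulfate sulfotransferase, differed by -1.61 ± 0.09 and Xkr4 by -1.77 ± 0.07, where their length groups had medians of 0.22 and 0.02. Transcripts outside protein-coding genes also differed by class. The median was 0.19 in HPC and 0.22 in PFC for processed pseudogenes (1223 and 1195 genes), -0.16 and -0.18 for antisense transcripts (600 and 581), and -0.46 and -0.75 for sense intronic transcripts (51 and 48). Long noncoding RNAs known to stay in the nucleus had medians of -0.10 and -0.19 (21 genes), with 14 lower in each tissue. Of the 21, 3 in HPC and 4 in PFC were at least 1.5-fold lower (all genes, 6.49% and 6.78%). In each tissue 1 was separated as higher and 1 as lower (all genes higher, 5.41% and 5.68%, and lower, 8.12% and 8.44%). Malat1, picked as the best known member of that list, ran from 29047 to 48927 in state A and from 20358 to 49638 in state B in HPC. Whether reads were counted by strand is not given, so antisense and intronic transcripts may include reads of their host genes.

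Markers of blood, choroid plexus and meninges moved with the state in part. The 4 hemoglobin genes together had a signal of 158 to 1496 in state A (median 355) and 8.35 to 170 in state B (median 51.7) in HPC, and 106 to 2225 (median 455) against 16.2 to 523 (median 84.1) in PFC. The erythrocyte list, of which 6 of 8 genes were measured, had medians of 2.48 and 1.81, with 2 and 1 genes not overlapping. Outside the 2 states, the 25 libraries per tissue that resembled state B reached 515 in HPC and 579 in PFC, and the 5 that resembled state A went down to 17.4 and 35.7, so that the ranges of these 2 sets overlapped widely. The choroid plexus and ependyma list had a median of 0.89 in HPC (0.65 to 1.42 with any 1 library left out, the latter without MIA female 2), and all 15 genes overlapped. By treatment group that median was 0.08 in MIA females, 2.26 in MIA males and 1.15 in saline males. Its summed signal ran from 1395 to 99944 in state A and from 1280 to 45503 in state B. In PFC it ran from 466 to 725 and from 391 to 753. Meningeal fibroblast markers were lower in state A in HPC (3364 to 5843 against 4243 to 7819, median log2 difference -0.67, or -0.84 to -0.43 with any 1 library left out, the latter without saline male 2, all 12 genes lower) and had a median of 0.00 in PFC. Striatal projection neuron markers in PFC ran from 11653 to 38208 in state A and from 7561 to 34259 in state B (median log2 difference 0.49). Within MIA females alone that median was 0.68, within MIA males 1.44 and within saline males -0.53. It was 0.20 without MIA male 5 and 0.88 without saline male 2. Of 16 leukocyte markers, 1 in HPC and 2 in PFC reached a mean signal of 10. The part of these markers in the state difference was not tested. Lists for excitatory neurons (0.04 and 0.09) and astrocytes (-0.02 and -0.04) had medians near that of all genes. Other lists lay further off: mature oligodendrocytes (0.22 and 0.21), interneurons (0.20 and 0.24), microglia (0.20 and 0.16), and pericytes and smooth muscle (-0.43 and -0.17). Set against the length groups of their members, these lists lay closer. In the same order, their median deviations were 0.06 and 0.09, 0.05 and 0.01, 0.04 and -0.02, and -0.19 and -0.10. The summed astrocyte signal did not overlap between the states, but the sum includes Slc1a2, whose HPC values given above make up a large part of it. Of the 15 astrocyte genes, 7 were higher in state A and 8 lower in HPC, and 6 and 9 in PFC, so the list did not move as a whole. The sum ran from 173407 to 202431 in state A and from 206822 to 239350 in state B in HPC. In PFC it ran from 150125 to 172765 and from 179091 to 203413.

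The 2 tissues gave nearly the same picture. Over 17838 genes tested in both, the state differences correlated across genes with Pearson's r of 0.90 and Spearman's rho of 0.88, and 88.5% had the same sign. Because the same labels form the states in both tissues, agreement for the genes that chose them is partly fixed by the choice, and these values describe genes, not replicates. Of the genes with all state A libraries higher, 469 did so in both tissues, which is 47.2% of the HPC set and 45.3% of the PFC set; without MIA female 3 of state B it was 791. Of those with all state A libraries lower, 1080 did so in both, or 72.5% and 70.1%. The number separated in opposite directions was 0. All 992 genes higher in HPC and measured in PFC had a positive difference there, and all 1487 lower ones a negative difference. Among genes of at least 1.5-fold in HPC, 1250 of 1293 had the same sign in PFC, and the number at least 1.5-fold in opposite directions was 0.

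**Figure D4:**
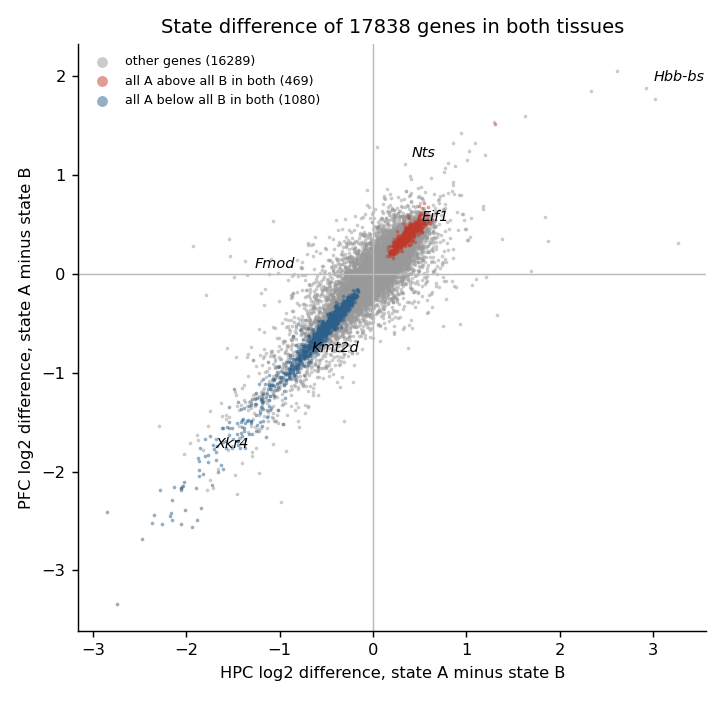
Log2 difference, state A minus state B, of the 17838 genes tested in both tissues, HPC against PFC; each point is 1 gene, red and blue points are the 469 and 1080 genes whose states did not overlap in both tissues. The points lie along the diagonal, with Hbb-bs, Nts and Fmod among the named genes away from it.

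Genes that did not overlap in 1 tissue only had the same sign in the other wherever they were measured there. Ndufb10, a subunit of respiratory complex I, differed by 0.44 ± 0.04 in HPC and 0.35 ± 0.09 in PFC, where its state B libraries spread from 1509 to 2757. Kmt2d, a histone H3 methyltransferase, differed by -0.87 ± 0.04 in PFC and -0.74 ± 0.09 in HPC, where state B spread from 2967 to 5421 and state A from 2215 to 3127. The overlap there came with wider state B ranges. State differences that diverged by at least 1.5-fold between the tissues were found for 221 genes. The genes named here were picked after their values were seen. Fmod, a collagen-binding proteoglycan of connective tissue, was one: it ran from 52.4 to 487 in state A and from 109 to 761 in state B in HPC (log2 difference -1.35 ± 0.38) and from 326 to 650 and 305 to 614 in PFC (-0.01 ± 0.15). Col1a1, a collagen chain, differed by -1.01 ± 0.25 and -0.27 ± 0.17. Nts, the neuropeptide neurotensin, differed by 0.34 ± 0.21 in HPC and 1.11 ± 0.31 in PFC. Ttr, the transthyretin of choroid plexus, differed by 3.27 ± 1.22 in HPC, where state A ran from 408 to 89354 and state B from 200 to 41021. Each of these ranges overlapped, and the tissue differences were not tested. Aff2, a nuclear regulator of transcription, was separated in both tissues and differed by -1.01 ± 0.07 in HPC and -1.38 ± 0.09 in PFC.

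Each treatment group alone showed the pattern. The state differences fitted within MIA females (2 against 5), MIA males (3 against 2) and saline males (4 against 2) correlated across genes with r between 0.67 and 0.75 in HPC and between 0.65 and 0.76 in PFC. The same sign was found for 78.2% to 80.2% of genes in HPC and 76.9% to 81.7% in PFC. The Spearman correlation with transcript length was -0.63 in MIA females, -0.61 in MIA males and -0.63 in saline males in HPC, and -0.67, -0.64 and -0.60 in PFC. These groups share no libraries, but all were divided by the same choice.

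The other 60 libraries were not used to form the states. Their distance to each state was measured over the 1549 genes separated in both tissues, as the share of genes for which a library lay nearer to the median of state A than to that of state B. For 5 labels that share was 94.6% to 99.2% in HPC and 92.2% to 98.3% in PFC: saline females 4, 5 and 6 without inhibitor, MIA female 6 with PLX5622 and saline male 5 with PLX5622. For the other 25 labels it was 0.65% to 15.9% in HPC and 0.39% to 7.30% in PFC. No label resembled 1 state in HPC and the other in PFC. Xkr4 was 390 to 536 in HPC in the 5 labels and 1182 to 1859 in the 25, and Eif1 was 3488 to 3868 against 2342 to 2962. The mean log2 signal of the longest of the 10 length groups minus that of the shortest was 2.17 to 2.40 in state A, 2.82 to 3.03 in state B, 2.21 to 2.39 in the 5 labels and 2.76 to 3.08 in the 25 in HPC. In PFC these ranges were 2.15 to 2.35, 2.68 to 3.07, 2.08 to 2.36 and 2.86 to 3.14. The values thus formed 2 sets with a gap between them in each tissue.

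**Figure D5:**
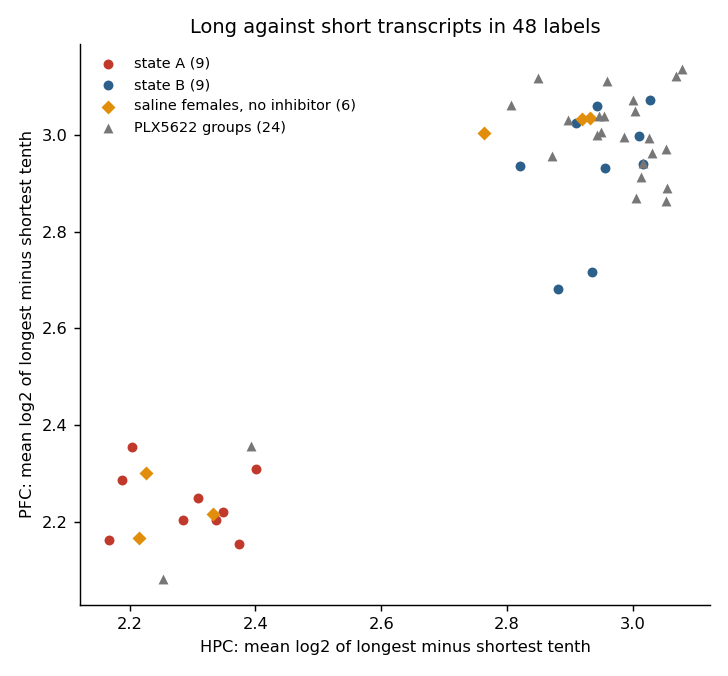
Mean log2 signal of the longest minus the shortest of 10 length groups of protein-coding genes in HPC (x axis) and PFC (y axis) for the 48 labels; each point is 1 label, with 9 of state A in red, 9 of state B in blue, 6 saline females without inhibitor in orange and 24 labels with PLX5622 in grey. The labels form 2 groups, and 3 saline females and 2 PLX5622 labels lie with state A.

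The share of ribosomal protein and oxidative phosphorylation genes was compared between the tissues of a label in the PLX5622 groups, which the choice of the states did not use. Of these 24 labels, 2 stood apart with state A. Over the other 22, Pearson's r was 0.11 (two-sided permutation p = 0.604) and Spearman's rho was 0.11 (permutation p = 0.615). A relation between the tissues was therefore not detected among these labels.

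With state as a term in the model, MIA males were compared with saline males. Among 18354 genes in HPC and 18242 in PFC, limma called 0 (0%) in each at an adjusted p under 0.05. At an unadjusted p under 0.05 there were 693 (3.78%) and 805 (4.41%), below the share of 0.05 that chance alone would give. Without the state term the numbers at an unadjusted p under 0.05 were 337 (1.84%) and 323 (1.77%), again with 0 called. The median standard error per gene was 0.0915 with the state term and 0.124 without it in HPC, and 0.0970 and 0.130 in PFC. The states were chosen from the expression values of these libraries. The smaller errors and larger unadjusted counts with the state term therefore carry no weight, and the p-values do not allow for that choice. With edgeR, 0 genes were called and 728 (3.97%) and 783 (4.29%) had an unadjusted p under 0.05. With DESeq2, 0 were called and 675 (3.68%) and 755 (4.14%) did. The lowest p in HPC belonged to Adamtsl5, an ADAMTS-like matrix protein, with signals of 75.5, 97.2, 111, 111 and 112 in the 5 MIA males and 57.7 to 76.9 (median 65.4) in the 6 saline males, a log2 difference of 0.59 ± 0.14 (limma, adjusted p = 0.999). In PFC it belonged to Slc23a3, a member of the ascorbate transporter family, with 3.92, 6.07, 6.09, 8.33 and 9.65 in MIA males and 12.3 to 21.5 (median 15.2) in saline males, a difference of -1.11 ± 0.23 (limma, adjusted p = 0.970). The ranges overlapped for Adamtsl5 and not for Slc23a3. The next lowest p belonged to Efhd2 (0.20 ± 0.05) and Lhx9 (-0.25 ± 0.06) in HPC and to Mapk15 (-1.33 ± 0.29) and Zfp804a (0.23 ± 0.05) in PFC, with the same adjusted p in each tissue. Litter is not given, so animals of 1 litter may count as separate replicates, and these p-values measure only the spread between libraries.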

How the data were processed

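Messenger RNA was measured by RNA-seq in 96 libraries, of which the 36 of the 2 states were described and the other 60 were placed beside them. Per the labels' protocols, 200 ng of total RNA (miRNeasy Micro) went into the Illumina Stranded mRNA Ligation preparation. The submitters' processing notes name Trimmomatic and STAR 2.6.1d with GRCm39 (mm39). For the counting step no tool is named (not given in the sources used here). Deposited values are a signal for 22709 genes, reads per gene which the authors divided by a factor for each library. Multiplying by a recovered factor (0.932 to 1.112 in the 36 libraries) made 100% of values whole (tolerance 0.01), although this cannot be told from chance where the factor lies near 1.

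Genes with a mean signal of at least 10 were kept, values were taken as log2(signal + 1), and folds are on that scale. State differences came from limma 3.58.1 (R 4.3.3) with treatment group as covariate and have no p-value. MIA and saline males were compared with limma, Benjamini-Hochberg adjustment at 0.05 and state as covariate. On the recovered reads, edgeR 4.0.16 and DESeq2 1.42.0 were alternatives. The models were tested on simulated data. The members and gene lists were chosen with earlier results of these data known. The first state genes named had a mean signal of at least 100 in both tissues and were the 15 on each side with the largest difference relative to its error, by the weaker tissue. For MIA against saline, the 3 genes of lowest p were named with no such minimum. Within lists, the most abundant and most widely separated members were eligible. Lengths and spans came from GENCODE vM21 (GRCm38), matched by symbol for 98.1% of genes in HPC and 98.0% in PFC, and no chromosome positions from it are printed. Other alternatives were scalings, filters, pseudocounts, single treatment groups and leaving out each library. The planned correlation of the share between tissues within each state is not reported, because that share chose the states.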

Additional observations from a re-analysis of the deposited data

Results flagged for a closer look

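In each of 148 sets of 9 libraries of 1 state and tissue, over 37 measures, the highest and the lowest library were compared with the rest. In 11 sets 1 library lay far from the others. Chance gives about 1 in 20 such sets.

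The summed hemoglobin signal was 1496 in HPC and 2225 in PFC in saline male 4 of state A, where the other state A libraries had 158 to 605 and 106 to 721. In state B, saline male 2 had 523.4 in PFC, and the others had 16.2 to 248. Saline male 2 also had a summed striatal marker signal of 34260 in PFC, where the others of state B had 7561 to 19920. In HPC, MIA female 2 of state A had a striatal marker signal of 6064, against 4686 to 5146.

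MIA female 3 of state B was the highest of its state in HPC for 3 of the genes that were lower in that state. It had 943 for Nudc-ps1 (others 739.8 to 827.6), 2786 for Rps6-ps4 (others 2329 to 2558) and 4993 for Pebp1 (others 3936 to 4469). Usp9x was 7735 in MIA female 5 of state B in PFC, against 5784 to 6733. Klhl11 was 505.7 in saline male 4 of state A in PFC, against 391.5 to 447.4. Tenm1 was 1320 in MIA female 1 of state B in HPC, against 1632 to 1810. Each of these 6 gene values stayed on its state's side of the gap between the states.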

How the results depend on the processing

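The number of genes separated by state depended on the scaling: with equal totals, 1733 in HPC and 1698 in PFC were higher in state A, and 1051 in both tissues. Genes at least 1.5-fold higher in HPC numbered 506 with no filter, 50 with a mean signal of at least 100, 97 with a pseudocount of 10, 801 in MIA males alone and 469 in saline males alone. In PFC they numbered 474, 45, 52, 764 and 539 in the same settings, 364 in MIA females alone and 312 with equal totals. Those at least 1.5-fold lower numbered 2225 with no filter and 443 with a mean of at least 100 in HPC, and 2437 and 523 in PFC. The cause was not tested, except that a filter changes how many genes enter.

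With equal totals, the PFC medians were -0.37 for chromatin genes and -0.35 for channels. The striatal list in PFC had 1.44 in MIA males alone and -0.53 in saline males alone. The correlation of the tissues was 0.78, 0.77 and 0.72 in MIA females, MIA males and saline males alone. The Spearman correlation with length was -0.52 in HPC and -0.53 in PFC with the median transcript of a gene, and -0.60 in PFC in saline males alone. Over all PLX5622 labels the share correlated between tissues with r = 0.82 (adjusted permutation p = 0.00606), which rests on 2 labels: without them r was 0.11. Spearman's rho over all of them was 0.32 (adjusted permutation p = 0.203). Taken as deviations from treatment group means, r was 0.83 (adjusted permutation p = 0.00066) and rho 0.54 (adjusted permutation p = 0.0202), with the 2 labels included. The use of transcript lengths and the leaving out of single libraries in the state fits were chosen after seeing the data.

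With any 1 library left out, 1001 to 1494 genes in HPC were separated as higher in state A, and 473 to 791 in both tissues. The upper ends came without MIA female 3.

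Between MIA and saline males, 0 genes were called in every setting run. At an unadjusted p under 0.05 there were 337 (1.84%) in HPC and 323 (1.77%) in PFC with no state term, and 376 (2.04%) in HPC within state B. Correlations across genes between same-numbered males, after group and state were removed, ran from -0.238 to 0.106 in HPC and from -0.294 to 0.463 in PFC. The labels do not say what the numbers mean, and these few values cannot show whether they pair the males. With the replicate block, 0 genes were called, and 809 (4.41%) in HPC and 632 (3.46%) in PFC had an unadjusted p under 0.05.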
